A study of Mus musculus with 2 samples.

Results

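The genes described here carry out and control cholesterol synthesis: the enzyme genes Hmgcs1, Idi1, Fdft1 and Sqle, the transcription factor genes Srebf1 and Srebf2, and the genes of their sterol-sensing regulators, Scap and Insig1. They were chosen by function, but with earlier results of these data known. Their data are the deposited UPF1 clusters that overlap each gene's RefSeq locus (GRCm38) on the gene's strand. All 8 genes had clusters, 60 of the 123349 in the whole list. The list comes from enhanced crosslinking and immunoprecipitation (eCLIP), which sequences the RNA fragments crosslinked to a protein. UPF1, a helicase central to nonsense-mediated mRNA decay, was pulled down with an antibody from cultured neural progenitor cells of mouse cortex, and an input library of the same kind of cells served as the comparison. Both libraries came from cells of genotype Upf2fl/fl, a loxP-flanked allele of the decay factor Upf2, and carry the label MOCK, whose meaning the labels leave unexplained. There was 1 library of each kind, so no value below has a spread between cultures, and no test between conditions was made.

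Cells build cholesterol from acetyl-CoA through mevalonate, isoprenoids, squalene and lanosterol. The SREBP proteins, made from Srebf1 and Srebf2, are held in the endoplasmic reticulum by SCAP and INSIG when sterols are plentiful. When sterols fall, SCAP escorts them to the Golgi, where proteases release the part that switches on the genes of synthesis and uptake. In the brain, cholesterol is made locally, with glia as a major source.

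Each cluster carries the authors' log2 fold of immunoprecipitate over input, together with a −log10 p. A cluster was counted as enriched at a log2 fold of at least 3 with a −log10 p of at least 3. Read counts behind the folds were reconstructed from both values, and the exact Clopper-Pearson 95% intervals given below cover counting error only. An enriched cluster was found in 4 of the 8 genes, Hmgcs1, Srebf1, Srebf2 and Insig1, which are called bound below. Among all 9483 protein-coding genes with a cluster on their strand the share was 34.8%. Of the 60 clusters, 18 were enriched, against 11.7% of all clusters on such genes. The median of the highest fold per gene was 3.29, and it was 2.56 over the 9483 protein-coding genes with a cluster. These figures for 8 genes are a description, and nothing particular to the group is drawn from them. Genes with more clusters were more often enriched over the whole list: 7.45% of genes with 1 to 3 clusters, 35.8% of those with 4 to 9 and 59.4% of those with 10 or more. Idi1, Fdft1 and Sqle, in the lowest class, had no enriched cluster, Hmgcs1, Srebf1 and Insig1, in the middle class, each had at least 1, and of the genes in the highest class Srebf2 was enriched and Scap was not.

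**Figure D1:**
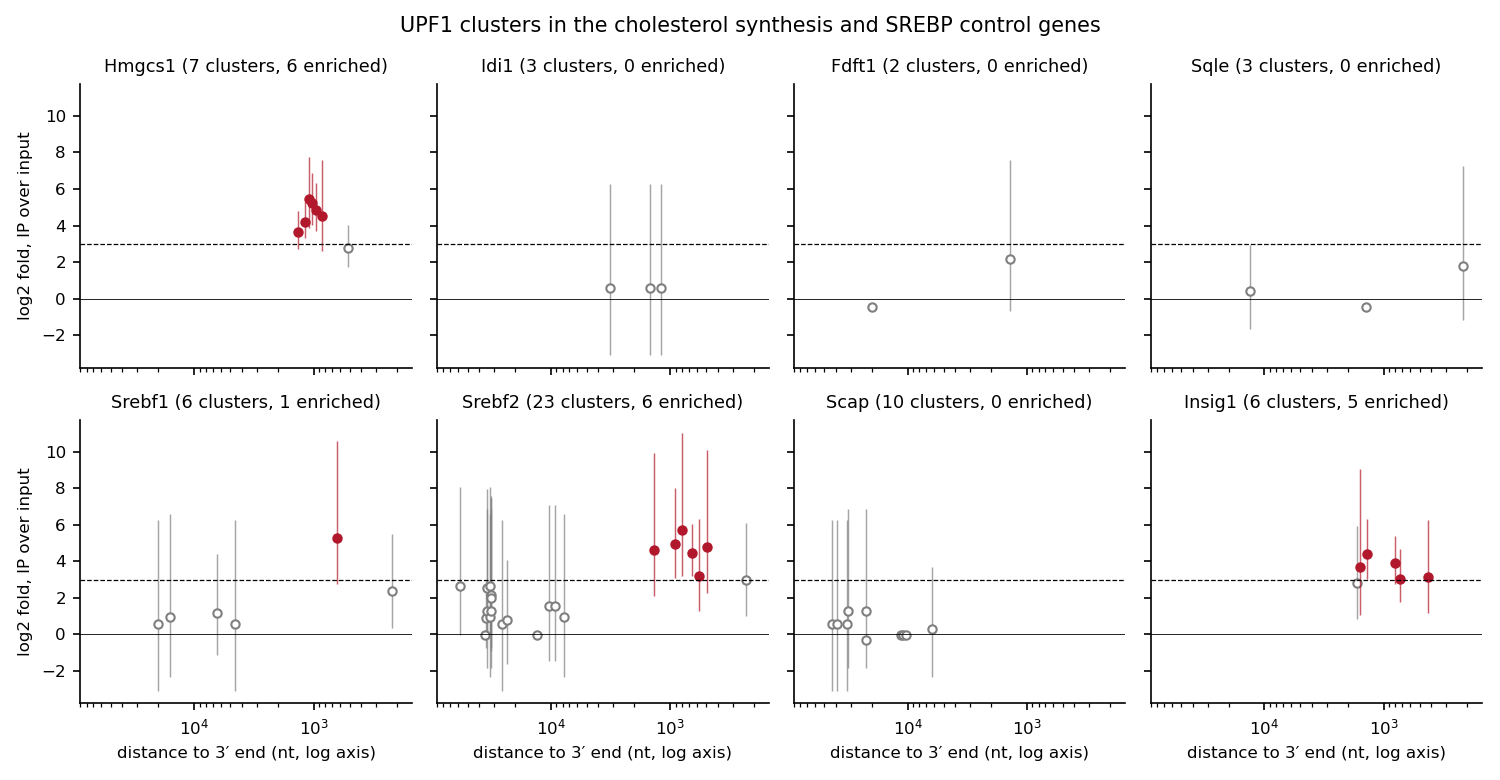
Log2 fold of immunoprecipitate over input (y axis) for each of the 60 clusters against its genomic distance to the 3′ end of the locus (x axis, nt, log scale, 3′ end to the right), with 1 panel per gene. Red points are enriched clusters, open points are not, vertical lines are 95% counting intervals where read counts could be reconstructed, and the dashed line marks a log2 fold of 3. All 18 red points lie between 423.5 and 1595 nt from the 3′ end.

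Of the 8 genes, Hmgcs1 held the most reads. It encodes the cytosolic HMG-CoA synthase, which joins acetyl-CoA to acetoacetyl-CoA at the entry to the pathway (chromosome 13, 119690351 to 119708260, plus strand). It had 7 clusters, all within 1343 nt of its 3′ end, and 6 were enriched. Read from the 5′ side to the 3′ side, their log2 folds were 3.67, 4.21, 5.44, 5.25, 4.86, 4.51 and 2.76. The highest value lay 1089.5 nt from the 3′ end. It rested on 265 immunoprecipitate reads against 3 input reads (interval of the log2 fold 3.88 to 7.73), and the neighbouring clusters on 377 against 10 and 386 against 5. That interval overlaps those of the other 6 clusters, so the position of the highest fold was not resolved. Nor were the lower values on its 5′ side. On the 3′ side, only the interval of the 5.25 cluster lay wholly, if narrowly, above that of the 2.76 cluster. No test of that difference was made beyond these intervals. The 6 enriched clusters covered 526 nt of a stretch of 569 nt, with gaps of 22 and 21 nt, a more continuous cover than in Srebf2 or Insig1. The cluster nearest the 3′ end was below the fold threshold although it held 110 reads against 8 and a −log10 p of 8.58. The highest fold of Hmgcs1 stood at the 92.6th percentile of the protein-coding genes with a cluster on their strand.

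The enzymes of the later steps had few reads. Idi1, isopentenyl diphosphate isomerase, which makes the allylic isoprenoid unit (chromosome 13, 8885606 to 8892396), had 3 clusters at 3191, 1476.5 and 1196 nt from its 3′ end. Each had a log2 fold of 0.56 from 3 reads against 1. Their summed 9 reads against 3 gave the same 0.56 with an interval from -1.44 to 3.08, whose upper end lies below the lower end for Hmgcs1, 3.94, over the last 5000 nt. Some clusters of Hmgcs1 adjoin and may share reads, so the interval of its summed reads may be too narrow. Each input count of 1 in Idi1 may also stand for no reads, and then its interval and the separation from Hmgcs1 would not hold. No test of that difference was made beyond these intervals. The paralog Idi2 had no cluster.

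Fdft1, squalene synthase, which commits isoprenoids to sterols (chromosome 14, 63145150 to 63181687, minus strand), had 2 clusters. The cluster 1391.5 nt from the 3′ end had a log2 fold of 2.15 from 9 reads against 1 (interval -0.71 to 7.60), and the other, 20118 nt away, had -0.44. A further cluster in the locus lay on the opposite strand, where the Fdft1 locus overlaps that of Ctsb, and was not counted. Sqle, squalene epoxidase, which adds the first oxygen of the sterol branch (chromosome 15, 59315092 to 59331193, plus strand), had 3 clusters. Their log2 folds were 0.39 at 13183.5 nt, -0.44 at 1395.5 nt and 1.78 at 217.5 nt from the 3′ end, the last from 7 reads against 1 (interval -1.18 to 7.28). Neither gene was enriched, and the intervals of their best clusters run from below 0 to above the threshold of 3, so enrichment was not detectable at this depth.

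Both SREBP transcription factor genes had enriched clusters, 6 in Srebf2 and 1 in Srebf1. Srebf2 encodes SREBP2, the form best known for driving sterol synthesis genes (chromosome 15, 82147269 to 82205379, plus strand). It had 23 clusters, the most of the 8 genes, and 6 were enriched. The 7 clusters in its last 5000 nt had, towards the 3′ end, log2 folds of 4.62, 4.98, 5.70, 4.44, 3.22, 4.78 and 2.98. All but the last passed, and the last missed the fold threshold narrowly with 32 reads against 2. The highest, 801 nt from the 3′ end, rested on 106 reads against 1 (interval 3.19 to 11.02). It stood at the 94.8th percentile of the protein-coding genes with a cluster on their strand. The deepest, 659 nt from the end, held 220 reads against 5. The enriched clusters covered 484 nt of a stretch of 950 nt. A gap of 379 nt set the first of them apart from the rest.

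The 16 clusters of Srebf2 farther than 5000 nt from its 3′ end were all below the threshold, with folds from -0.02 to 2.68 and at most 15 reads in those reconstructed. The cluster at its 5′ end was among the highest of them, at 2.68 from 13 reads against 1 (interval -0.06 to 8.09, −log10 p 1.34). It spans chr15:82147282-82147396, starting just inside the locus. It is shown because, in the 6 genes with an entry in the RefSeq promoter table, it is the only cluster that reaches into a promoter window, 250 bases before to 50 after the gene start. The first 30 bases of the overlap, chr15:82147282-82147311 on the plus strand, from RefSeq (GRCm38.p6), are given in lower case with no part singled out:
Srebf2 5′ end: ggcacggggcggtgaggcggtaccaggtgg

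Srebf2 also carries Mir33, a microRNA that represses cholesterol efflux genes, as an internal hairpin (chromosome 15, 82198122 to 82198190). No cluster covered the hairpin. The nearest one lay 442 nt upstream, with a log2 fold of 0.98 from 4 reads against 1. The mature arms, from RefSeq, are shown because they mark the stretch of the host locus that lacked a cluster, with bases 2 to 8, the seed, in capitals:
mmu-miR-33-5p: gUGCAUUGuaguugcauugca
mmu-miR-33-3p: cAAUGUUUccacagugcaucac
Clusters were called on crosslinked RNA fragments of the immunoprecipitate, so the missing cluster says nothing about the level of the microRNA.

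Srebf1 encodes SREBP1, the form better known for fatty acid synthesis genes (chromosome 11, 60199084 to 60224186, minus strand). It had 6 clusters and 1 was enriched. That cluster, 638 nt from the 3′ end, had a log2 fold of 5.28 from 79 reads against 1 (interval 2.76 to 10.60). Srebf1 had no enriched cluster if an input count of 1 was not accepted. The cluster next to the 3′ end, at 220.5 nt, had 2.37 from 21 reads against 2 and a −log10 p of 1.89. The other 4 clusters, at 4548 to 20143.5 nt, had folds between 0.56 and 1.15 and at most 9 reads. The hairpins of Mir6921 and Mir6922 inside the locus were covered by no cluster. Over the last 5000 nt the summed reads gave a log2 fold of 3.66 for Srebf1 (103 against 4, interval 2.26 to 5.57) and 4.47 for Srebf2 (630 against 14, interval 3.71 to 5.35). These intervals overlap, so the folds of the SREBP transcripts were not resolved from each other. Srebf1 had 1 enriched cluster and Srebf2 had 6. With an input count of 1 left uncalled, Srebf2 kept 3 enriched clusters and its highest fold was 4.98.

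Of the sterol-sensing regulators, Insig1 had enriched clusters and Scap had none. Insig1 encodes the endoplasmic reticulum anchor that retains SCAP (chromosome 5, 28071412 to 28078662, plus strand). It had 6 clusters and 5 were enriched. Towards the 3′ end the log2 folds were 2.83, 3.68, 4.43, 3.91, 3.03 and 3.15. They formed separate islands with gaps of 134, 449 and 261 nt rather than the near-continuous stretch of Hmgcs1, and covered 372 nt of 1216. The highest lay 1368.5 nt from the 3′ end and rested on 175 reads against 4 (interval 3.04 to 6.32). The 3.68 cluster rested on 26 reads against 1 and a −log10 p of 3.19. Several of these values sit close to the thresholds: with a fold threshold of 4 only 1 cluster of Insig1 passed. All 6 clusters also lie inside the locus of the long non-coding RNA Gm35223, whose RefSeq strand is minus, opposite to the clusters. Insig1 drops out where only clusters inside a single locus are kept, whatever the strand.

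The paralog Insig2, which has the same anchoring role, had no enriched cluster among its 6 and reached a log2 fold of 1.98 from 8 reads against 1 (interval -0.92 to 7.45). Over the last 5000 nt the summed reads of Insig2, 20 against 4, gave 1.30 (interval -0.28 to 3.31), and those of Insig1, 532 against 20, gave 3.71 (interval 3.07 to 4.43). The intervals overlap at their ends, which does not settle whether the folds differ, and the difference was not tested. The sum for Insig2 leaves out a cluster whose fold was at or below 0 and is therefore too high rather than too low.

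Scap, the sterol sensor and escort of the SREBPs (chromosome 9, 110333288 to 110384949, plus strand), had 10 clusters, of which none passed. Their log2 folds ran from -0.29 to 1.30, and the best held 5 reads against 1 (interval -1.86 to 6.86). Every cluster lay 6201 to 42847 nt from the 3′ end, so none was in the last 5000 nt, where all the enriched clusters of the other genes were. Of the 3202 protein-coding genes with at least 10 clusters, 253 (7.90%) likewise had none in their last 5000 nt, and 73 of these 253 had an enriched cluster elsewhere.

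Enriched clusters of the bound genes lay near the 3′ end, where most enriched clusters of all protein-coding genes also lay. All 18 enriched clusters lay 423.5 to 1595 nt from the annotated 3′ end of their locus, and the highest cluster of each gene lay at 638 nt in Srebf1, 801 nt in Srebf2, 1089.5 nt in Hmgcs1 and 1368.5 nt in Insig1. The median of these 4 distances was 945.25 nt, and it was 1080.5 nt over 3041 protein-coding genes with near enriched clusters. All protein-coding genes had 1911 enriched clusters under 400 nt from the end, 6496 from 400 to 1700 nt and 4503 from 1700 to 5000 nt. From 5000 to 20000 nt they had 860, and farther away 320. Between 400 and 1700 nt from the end, 18 of 24 clusters of the 8 genes were enriched (75.0%). Over all protein-coding genes it was 40.2%, and over genes with an enriched cluster 63.2%. These bounds were set after the values had been seen, so the comparison is a description. In the last 400 nt the 8 genes had 3 clusters, too few for a share, and none passed. Over all protein-coding genes 31.5% of clusters there did. Beyond 5000 nt 0 of 31 clusters passed, 16 of them in Srebf2 and 10 in Scap. Were the clusters independent, this count would permit a true share of up to 9.68% (3 divided by 31). Clusters of 1 gene share their transcript and are not replicates, so that bound is too narrow. Over all protein-coding genes the share was 4.70% from 5000 to 20000 nt, where 11 of the 31 lay, and 0.50% farther away, where the other 20 lay.

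In each of the 4 bound genes the cluster nearest the 3′ end was below the gene's highest: 2.76 against 5.44 in Hmgcs1, 2.37 against 5.28 in Srebf1, 2.98 against 5.70 in Srebf2 and 3.15 against 4.43 in Insig1. The same held for most other genes. Of 3041 protein-coding genes with an enriched and at least 1 other cluster in the last 5000 nt, the nearest cluster was the highest in 16.4% and was enriched in 49.1%. In the 4 genes here it was enriched in 1, Insig1. Distances include introns and run to the outermost annotated end, so a transcript ending earlier would have its clusters nearer to its own end. Exons and introns were not told apart here.

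**Figure D2:**
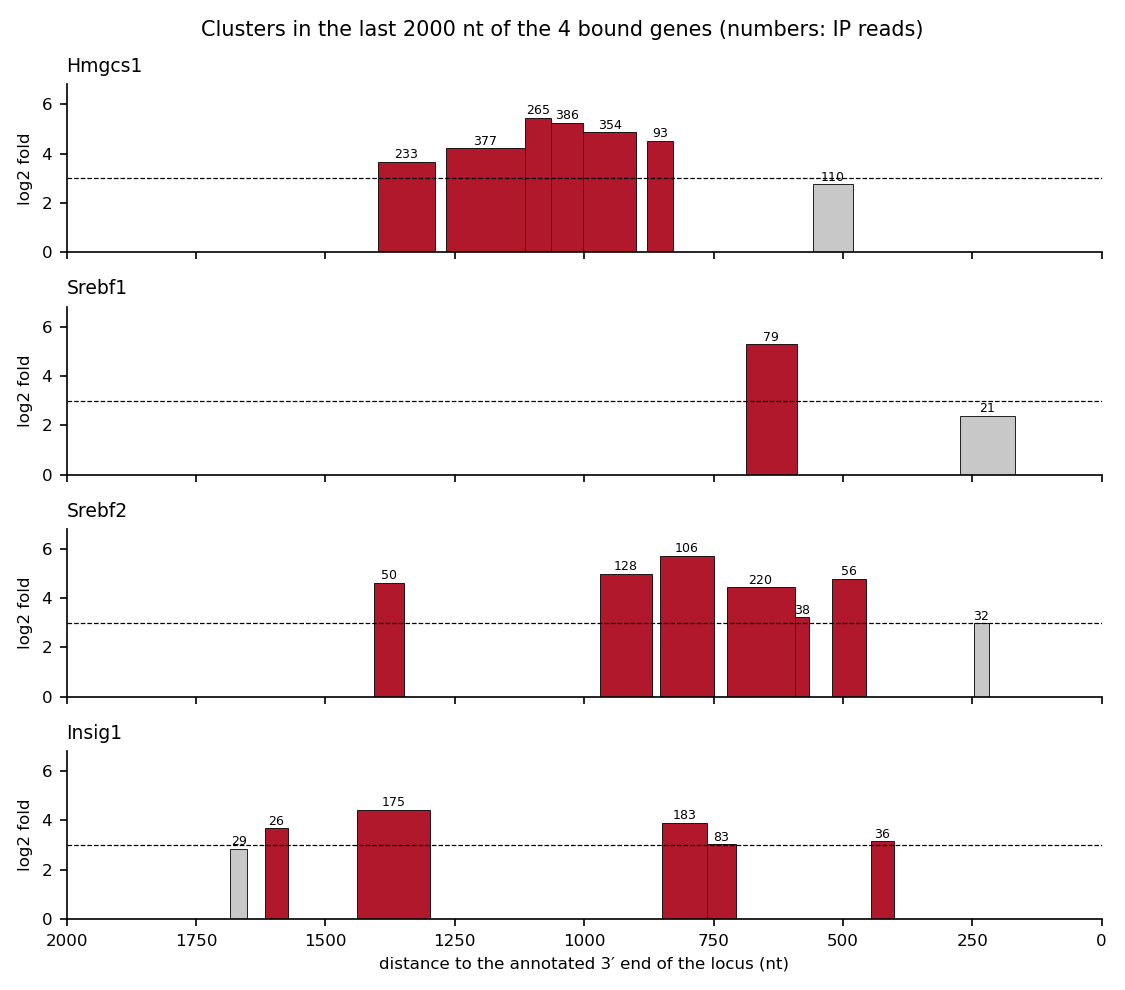
Clusters in the last 2000 nt of Hmgcs1, Srebf1, Srebf2 and Insig1, drawn to scale as bars whose width is the cluster's length and whose height is its log2 fold over input. The x axis is the distance to the annotated 3′ end in nt, red bars are enriched, the number on each bar is its reconstructed immunoprecipitate read count, and the dashed line marks a log2 fold of 3. Among the enriched bars, the 6 of Hmgcs1 adjoin or lie within 22 nt of the next, a single pair adjoins in Insig1, and the bar nearest the 3′ end is not the tallest in any of the 4 genes.

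The read counts set which clusters could pass. Against 1 input read, 17 immunoprecipitate reads are needed for a log2 fold of 3 and 24 for a −log10 p of 3 as well. The 18 enriched clusters held 26 to 386 immunoprecipitate reads, with a median of 117, and 5 of them had an input count of 1. Of the 42 clusters that were not enriched, 8 had a fold at or below 0 and no reconstructed count, 31 held fewer than 24 reads, and 3 held more. Those 3 were the clusters of Hmgcs1, Srebf2 and Insig1 just under the fold threshold, at 2.76, 2.98 and 2.83, each with a −log10 p above 3. No cluster of Idi1, Fdft1, Sqle or Scap reached 10 reads among those reconstructed, with a highest count of 9. For these 4 genes the data do not separate an unbound mRNA from a scarce one, since the file holds no expression level. Nor can fewer cells that express a gene be told apart from less of its RNA per cell.

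**Figure D3:**
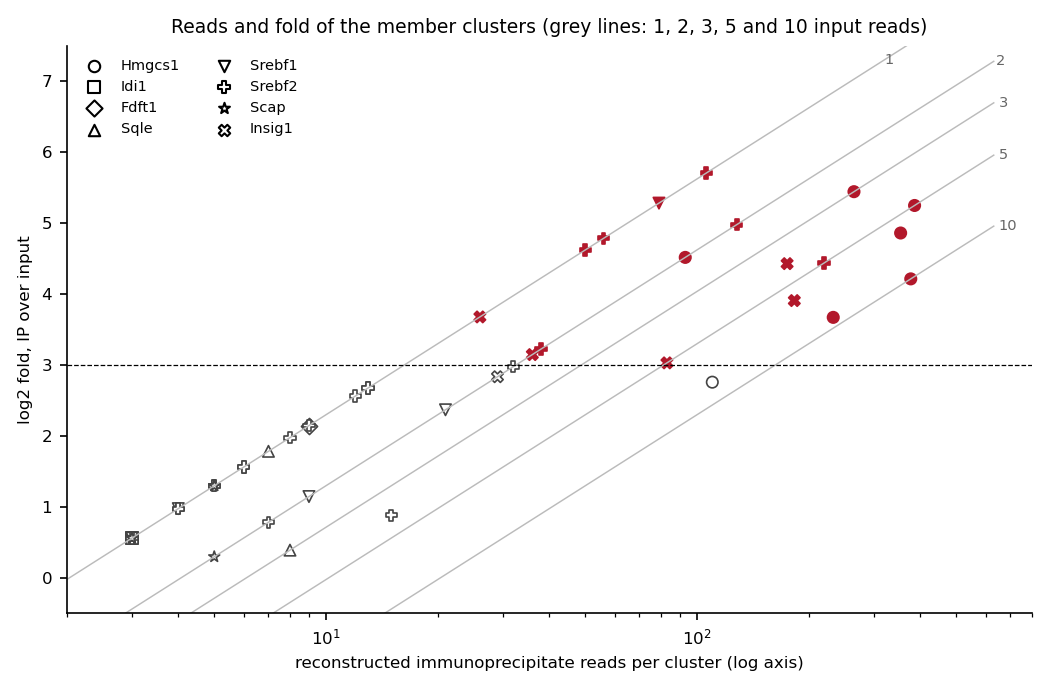
Log2 fold over input (y axis) against reconstructed immunoprecipitate reads per cluster (x axis, log scale) for the 52 clusters of the 8 genes with a fold above 0, with 1 marker shape per gene. Red markers are enriched, open ones are not, the dashed line is a log2 fold of 3 and the grey lines join clusters with the same number of input reads. Hmgcs1 lies farthest right, up to 386 reads, and the clusters of Idi1, Fdft1, Sqle and Scap lie at 9 reads or fewer.

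The rest of the pathway was read from lists of its other genes. Of 49 such genes, 41 had clusters on a known strand, and 20 of the 41 had an enriched one (48.8%, beside 34.8% of all protein-coding genes with a cluster). Their median highest fold was 3.22. The lists were written with earlier results of these data known, and genes of a pathway are not replicates.

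Among the other enzymes up to the isoprenoids that are reported here, 1 of 5 with a cluster was enriched. Acat2, which makes acetoacetyl-CoA for Hmgcs1 to use, had all 4 clusters enriched and reached 5.40 (interval 2.89 to 10.72). Ggps1, geranylgeranyl diphosphate synthase, reached 1.44 over 6 clusters, and the kinase gene Mvk and the decarboxylase gene Mvd had 3 each, both with 2.15. For Fdps the strand was not settled, and its 1 cluster was not used.

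In the sterol branch, after Sqle, 5 of 9 genes with a cluster were enriched. Dhcr7, which makes cholesterol from 7-dehydrocholesterol, had all 6 clusters enriched and reached 5.45 (interval 2.94 to 10.77). Cyp51, lanosterol demethylase, had 2 of 8 enriched and reached 4.20. Sc5d, a sterol desaturase, had 1 of 6 with 4.08, and Lss, lanosterol synthase, 2 of 11 with 3.68. Lbr, a nuclear envelope protein with sterol reductase activity, reached 1.56 over 5 clusters. Nsdhl, Ebp and Hsd17b7 had 1 cluster each and were not enriched, and Tm7sf2 had none.

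Among the genes of SREBP processing and factors of the endoplasmic reticulum linked to it, 5 of 9 with a cluster were enriched. Erlin2 and Erlin1, endoplasmic reticulum scaffold proteins, reached 5.88 with 11 of 12 clusters enriched and 5.17 with 2 of 4. Pgrmc1, a heme-binding membrane protein, reached 4.19 with 2 of 4. Mbtps2, the protease that makes the second cut in SREBPs, had 2 of 12 enriched and reached 4.53 from 188 reads against 4 (interval 3.15 to 6.42). Mbtps1, the protease of the first cut, had no enriched cluster among its 9, the best at 3.06 from 17 reads against 1 and a −log10 p of 1.96. Its interval, 0.39 to 8.45, contains that of Mbtps2, so the proteases were not resolved from each other. The 2 clusters of Rnf139 were not used because its strand was not settled.

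Of the genes of sterol uptake and transport, 6 of 12 with a cluster were enriched. Npc2 and Npc1, which move cholesterol out of the lysosome, reached 5.91 with 5 of 8 clusters enriched and 5.74 with 2 of 10. Lrp1, a lipoprotein receptor, reached 5.88 with 6 of 60, and Osbp, a sterol transfer protein, 5.15 with 10 of 13. Gramd1a and Scarb1 had 9 and 8 clusters and none enriched, with 3.22 and 3.44, both short of the p threshold. Mylip, a ubiquitin ligase for the LDL receptor, had no cluster. Among genes of efflux and storage under LXR control or acting beside it, 3 of 6 with a cluster were enriched. Abca1, the cholesterol exporter, reached 6.88 (interval 4.39 to 12.19) with 15 of 67, Soat1, which esterifies cholesterol, 5.59 with 9 of 10, and Abcg4 3.56 with 1 of 5. The LXR gene Nr1h2 and the lipoprotein gene Apoe had 9 and 8 clusters and none enriched, with 2.88 and 2.06. Nr1h3, Cyp27a1 and Ch25h had no cluster, and the 1 cluster of Abcg1 was not used because its strand was not settled.

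**Figure D4:**
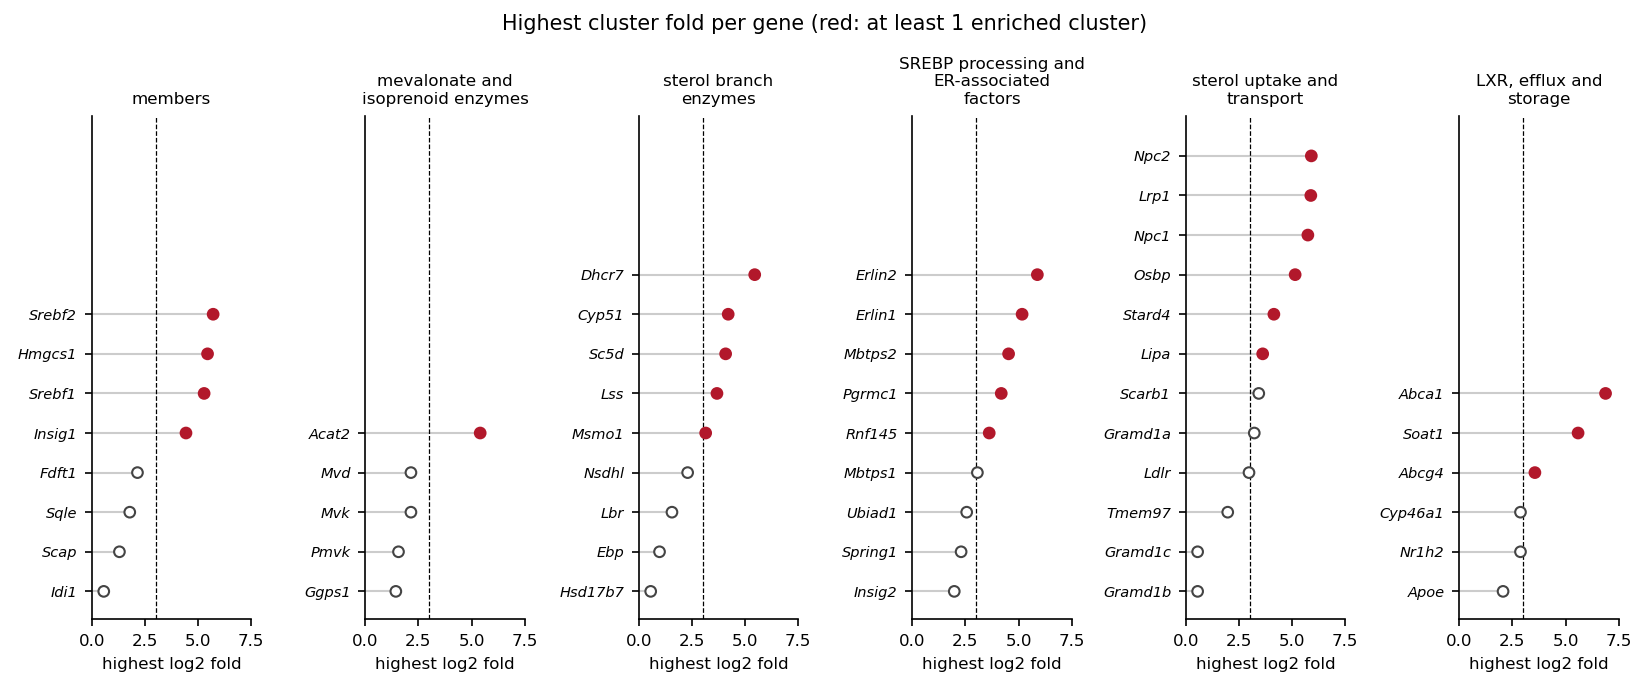
Highest log2 fold over input among the clusters of each gene (x axis), for the 8 genes described here (first panel) and the other genes of the pathway in 5 lists. Red points are genes with at least 1 enriched cluster, open points are genes with none, the dashed line marks a log2 fold of 3, and genes without a usable cluster are not drawn. Every list holds genes on both sides of the line, from Idi1 at 0.56 to Abca1 at 6.88.

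The cell type label was checked against marker genes, as presence of clusters only. Of 10 progenitor markers, 9 had clusters on a known strand, and of 8 markers of blood, fibroblasts, vessels and microglia none did. Clusters were also present on 4 of 5 astrocyte markers, 4 of 5 neuron markers and 3 of 5 markers of the oligodendrocyte lineage, with Tubb3, Mbp and Mog at none. The fifth astrocyte marker, Aqp4, had 18 clusters in its locus whose strand was not settled. The share of such cells in the culture, and its part in the values above, was not tested.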

How the data were processed

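eCLIP clusters of 1 UPF1 immunoprecipitate, each set against 1 input library, were taken as deposited. Per the submitters' processing notes, UMI-tools, cutadapt, STAR and the build mm10 were used. The tool that called clusters, how the fold was made and what was filtered is not given in the sources used here. Both columns lack a file header, and the units of the authors' log2 fold and −log10 p were read from the values: the −log10 p is 0 wherever the fold is not above 0 (32999 clusters) and is capped at 400. Input reads enter only through these columns.

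Clusters overlapping a RefSeq GRCm38.p6 locus by at least 1 nt on its strand were kept. The strand came from the RefSeq promoter table, which matched 6 of the 8 genes. For Fdft1, Sqle and other genes it was the strand of at least 80% of 2 or more clusters lying in no other locus. Where both were available, they gave the same strand for 99.7% of 6690 genes. 

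Reads were reconstructed by taking the commonest fold as 3 reads against 1, so that the immunoprecipitate held 2.03 times the input reads, and by matching the −log10 p of an exact binomial test (a count under 5) or a continuity-corrected chi-square test within 0.05 or 1%. This gave counts for 90025 of 90350 clusters with a fold above 0 and for all 52 such clusters here. On counts simulated with the same scale and the same tests, it recovered 99.8% of 1975 count pairs. That simulation cannot check whether the scale and tests match those behind the deposited values. An input count of 1 may also stand for no reads. Adjoining clusters may share reads, so intervals of summed reads may be too narrow. Because the libraries have no replicates, no p-value across genes was computed. Python 3.11.15 with scipy 1.17.1 and pandas 2.3.3 was used.

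The genes and lists were chosen with earlier results of these data known. Named beside the 8 genes were the paralogs, up to 4 enriched genes per list by fold, the genes with most clusters but none enriched (2 per list, ties added), and genes without clusters. Alternatives tried concerned thresholds, overlap, merging and low input. Apart from the RefSeq promoter windows and microRNA arms, no genome sequence was used. Some genes are not reported here and were left out of the counts.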

Additional observations from a re-analysis of the deposited data

How the results depend on the processing

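Of 34 recomputed values for 5 results, 32 stayed within 1.5 times the reported one. The exceptions were both for the median highest log2 fold of the 8 genes: it was 2.15 when only clusters inside a single annotated locus were kept, which removes all clusters of Insig1, and 1.62 with length-weighted mean folds in place of the highest. The number of genes with an enriched cluster stayed at 4 with a fold threshold of 2 or 4, a −log10 p threshold of 5, clusters wholly inside the locus and adjoining clusters merged. It was 3 without clusters in overlapping loci (Insig1 lost) and 3 with an input count of 1 left uncalled (Srebf1 lost). The count of enriched clusters, 18, ranged from 12 with a fold threshold of 4 to 21 with a threshold of 2, and that of the other pathway genes, 20, from 15 to 20. All 18 also lay within 2000 nt of the 3′ end, which follows from their highest distance of 1595 nt. No paired analysis was possible because there was 1 library of each kind. Read depth limits what can be said of Idi1, Fdft1, Sqle and Scap, where at most 9 reads lay in a cluster with a reconstructed count.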
